A study of Homo sapiens with 12 samples.

Results

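H1703 is an established human non-small cell lung cancer line, one of 4 lines that the study sampled as parental cells, as tumour-initiating cells (TICs) and as TICs with knockdown of PRKCI. The 3 libraries described here are the H1703 libraries in those 3 states, chosen by the names of their columns, out of 12 libraries in all. The other 9 come from H1299, CHAGO and CALU and serve only to show where H1703 differed. The groups are H1703 parental cells, which the labels call adherent, H1703 TICs, and H1703 TICs in which PRKCI was knocked down. Each is a single RNA sequencing library of 1 cell line. How TICs were grown and how the knockdown was made is not stated by any source used here, and the labels do not say whether the TIC library carries a control construct. The series' title ties the study to Hedgehog signalling that depends on PRKCI.

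PRKCI encodes a kinase of the atypical protein kinase C class, PKC iota. It works with the polarity proteins PAR6 and PAR3, and its gene is often gained in lung squamous tumours. TICs are a minor population of tumour cells defined by their ability to start new tumours, and they are usually enriched by growth without attachment. Hedgehog signalling starts when a palmitoylated ligand binds PTCH1, which frees SMO and lets the GLI factors activate their targets.

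The H1703 libraries held 26466365 reads assigned to genes in parental cells, 22408673 in TICs and 25665120 in knockdown TICs. The table lists 22506 genes, 14721 of which had a read in H1703, and 11308 had a mean of at least 1 CPM, a gene's reads scaled to a common library total, over the 3 libraries and were compared. All levels below are CPM after scaling by the trimmed mean of M-values (TMM), given in the order parental, TIC and knockdown TIC, and they are not divided by gene length. Log2 differences use a prior count of 2. Because each state is 1 library, no test between states was possible within H1703: intervals are 95% intervals of counting error only, and a change of at least 2-fold is a size, not a call of significance. The share of reads from MALAT1, a nuclear noncoding RNA, was 1.56% in parental cells, 4.25% in TICs and 3.78% in knockdown TICs. The 10 most abundant genes took 6.02%, 9.24% and 8.98% of reads. How far these differences in composition enter the changes of other genes was not tested.

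The knockdown label held. PRKCI was at 303, 346 and 59.6 CPM, 5.80-fold lower in knockdown TICs than in TICs (log2 interval −2.62 to −2.46), while TICs and parental cells differed by 0.19. PDGFRA, a receptor tyrosine kinase for which H1703 is known, was at 2616, 3112 and 2619 CPM, and at most 3.77 in the 9 other libraries. FGFR1, another receptor tyrosine kinase, was at 145, 148 and 117 CPM. Markers of squamous epithelium, looked at as a check of the tumour type in the series' title, were nearly absent, and 18 of 21 had no read. Only KRT15, a basal keratin, passed the minimum among 21 squamous and basal markers, at 2.62, 15 and 12.6 CPM, and TP63, the squamous lineage factor, had 0, 5 and 0 reads. Of 20 epithelial markers 2 passed. Of 18 mesenchymal markers 7 passed and 6 had no read. VIM, a mesenchymal filament gene, was at 706, 803 and 634 CPM, and ZEB1, a repressor of epithelial genes, at 206, 372 and 265. Only these 2 mesenchymal markers reached a mean of 50 CPM. Of the 7, 5 were higher and 2 lower in TICs than in parental cells. No marker of 12 endothelial or of 15 alveolar and airway markers passed, against 2 of 15 leukocyte markers and 2 of 12 fibroblast markers. The leukocyte pair was CD68, also a general lysosomal gene, at 339, 655 and 830.3 CPM, and ITGAM, at 79.0, 0 and 0.515.

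Of the 11308 genes, 1972 (17.4%) were at least 2-fold higher and 1846 (16.3%) at least 2-fold lower in TICs than in parental cells. Between knockdown TICs and TICs, 1673 (14.8%) were at least 2-fold higher and 1697 (15%) at least 2-fold lower. Knockdown TICs against parental cells gave 1887 higher (16.7%) and 1868 lower (16.5%). The 3 comparisons share libraries, so their values stand side by side and are not independent. Another scaling shifted the balance: with the authors' mode-normalized values the median gene was 0.19 higher on the log2 scale in TICs than in parental cells, where it was −0.01 here, and 62.0% of the genes past 2-fold were higher, against 51.7% here. For knockdown TICs against parental cells the median gene then lay at 0.13.

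The share of genes past 2-fold was highest at low levels. Shares over all genes, set beside the gene lists below, pool all levels and are not matched to a list's own level. Among the 2356 genes at 1 to 5 CPM, 59.6% differed at least 2-fold between TICs and parental cells and 59.6% between knockdown TICs and TICs. At 200 CPM or more the shares fell to 8.71% and 1.72% of 1160 genes. At these high levels TICs had 79 genes past 2-fold higher and 22 lower than parental cells, whereas knockdown TICs had 4 higher and 16 lower than TICs and 74 higher and 30 lower than parental cells. For genes at 50 CPM or more, 13.0% of 3782 lay past 2-fold between TICs and parental cells in H1703, against 22.7% (H1299), 10.6% (CHAGO) and 19.3% (CALU). From TICs to knockdown TICs the share was 6.50% in H1703, and 7.47%, 2.01% and 10.5% in the same other lines.

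**Figure D1:**
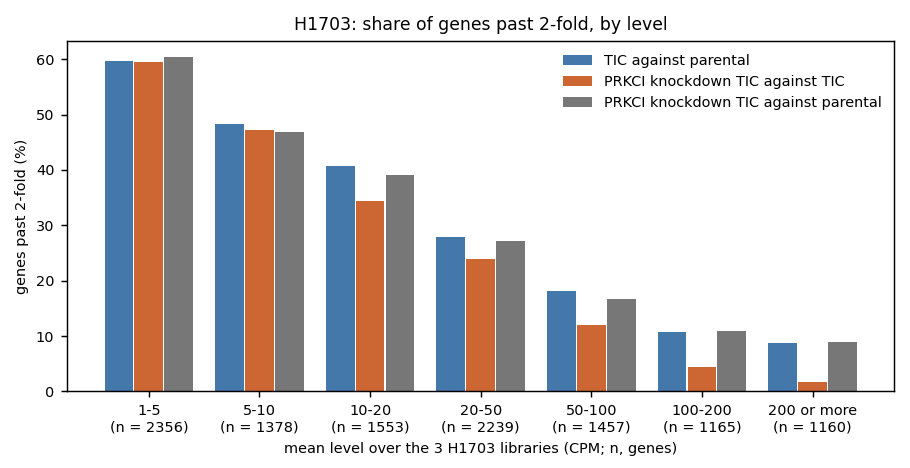
Bars give the percentage of genes at least 2-fold different between 2 H1703 libraries (y axis, %) by mean level (x axis, CPM) for the 3 comparisons. From 1 to 5 CPM up to 200 CPM or more, the share falls from 59.6% to 8.71% for TIC against parental, from 59.6% to 1.72% for knockdown TIC against TIC and from 60.3% to 8.97% for knockdown TIC against parental.

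The sterol pathway was higher in H1703 TICs and stayed higher after knockdown. Cholesterol is made from acetyl-CoA by a chain of enzymes whose genes, with genes of cholesterol uptake, are controlled together by SREBF2, a membrane-bound transcription factor released when sterols are low. The list of synthesis and uptake genes held 25 members, of which 22 passed the minimum. In TICs 20 of the 22 were higher than in parental cells, 11 of them at least 2-fold and none at least 2-fold lower, where 17.4% of all genes were at least 2-fold higher. The median log2 difference was 1.06, beside −0.01 over all genes. At 50 CPM or more the median of 16 members was also 1.06. In knockdown TICs 21 of 22 were higher than in parental cells, with a median of 1.10. By at least 2-fold 12 were higher, where 16.7% of all genes were. Knockdown TICs and TICs differed by a median of 0.11, beside 0.00 over all genes. Between them 2 members were at least 2-fold higher and none lower, beside 14.8% and 15% of all genes. The count of higher members does not exceed that share.

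Enzymes from early steps were higher in TICs. HMGCS1, which makes HMG-CoA, was at 304, 739 and 926 CPM, 2.43-fold higher in TICs than in parental cells (log2 interval 1.24 to 1.32). FDFT1, squalene synthase, was at 95.6, 415 and 309.8 CPM, 4.34-fold higher in TICs. Later steps followed. SC4MOL, a sterol methyl oxidase now named MSMO1, was at 41.5, 169.9 and 229 CPM, and SC5DL, a sterol desaturase, at 36.8, 117 and 111. DHCR7, the last reductase, was at 58.0, 191 and 99.8 CPM and was the member furthest below TICs after knockdown (−0.94 on the log2 scale). NPC1, a lysosomal cholesterol exporter from another list, was at 129.9, 372 and 463 CPM. STARD4, a sterol carrier, was at 5.14, 23.1 and 50.2 CPM, a step up at each state. INSIG1, which retains SREBF proteins in the endoplasmic reticulum, was at 74.3, 109 and 176 CPM. The factor itself, SREBF2, was at 42.5, 83.7 and 67.0 CPM.

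To show what the promoters of 2 members that moved together share, the 250 bases before the start of transcription are given from RefSeq's table (GRCh38.p14), with each CCAAT box (CCAAT or, on the other strand, ATTGG) in capitals. CCAAT is the site of NF-Y, a general promoter factor that SREBF proteins often act beside. HMGCS1 lies at chr5:43313413-43313662, minus strand, and SC4MOL at chr4:165327419-165327668, plus strand.
HMGCS1: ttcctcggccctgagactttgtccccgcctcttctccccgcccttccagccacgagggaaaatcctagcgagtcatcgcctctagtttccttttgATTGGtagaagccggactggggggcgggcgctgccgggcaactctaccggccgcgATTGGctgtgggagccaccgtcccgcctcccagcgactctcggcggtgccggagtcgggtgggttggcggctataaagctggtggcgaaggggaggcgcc
SC4MOL: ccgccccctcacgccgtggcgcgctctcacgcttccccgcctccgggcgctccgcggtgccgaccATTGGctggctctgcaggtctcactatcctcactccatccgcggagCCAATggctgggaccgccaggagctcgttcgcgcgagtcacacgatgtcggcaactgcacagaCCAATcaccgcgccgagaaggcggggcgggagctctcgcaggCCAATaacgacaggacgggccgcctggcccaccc
Of the 22 members compared, 16 had a promoter in the table, and 13 of the 16 (81.2%) held CCAAT on either strand, against 33.0% of all 27305 promoters in the same window. The box was as common in lists that were mostly lower in TICs, with 82.6% of mitosis, 87.5% of histone and 66.7% of DNA replication promoters. A sterol-element-like string, TCACNCCAC on either strand, was in 1 of the 16, SREBF2 itself, and in 0.875% of all promoters.

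Fatty acid genes moved less uniformly. Of 15 members compared, 11 were higher in TICs than in parental cells, 4 at least 2-fold, and 2 were at least 2-fold lower, with a median of 0.38. Over all genes 17.4% were at least 2-fold higher and 16.3% lower. SCD, the desaturase that makes oleate, was at 3407, 10510.4 and 9221 CPM, 3.08-fold higher in TICs than in parental cells and 2.71-fold higher in knockdown TICs. FASN, fatty acid synthase, was at 42.5, 133 and 81.4 CPM, with the knockdown library between the others.

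DNA replication genes were lower in TICs than in parental cells and lower again in knockdown TICs. These genes encode the MCM helicase, its loaders, DNA polymerase partners and the enzymes that make nucleotides, and E2F factors switch them on before S phase. All 28 members of the list were compared. In TICs 22 were lower than in parental cells, 6 at least 2-fold, with a median of −0.69, where 16.3% of all genes were at least 2-fold lower. From TICs to knockdown TICs 23 were lower, with a median of −0.44. Of these, 5 were at least 2-fold lower, a share near that of all genes (15%). Against parental cells, knockdown TICs had 27 of 28 lower, 18 at least 2-fold, and a median of −1.25, where 16.5% of all genes were at least 2-fold lower. In bulk RNA, fewer cycling cells and less RNA per cycling cell cannot be told apart.

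CCNE2, cyclin E2, was at 71.5, 22.8 and 14.3 CPM, 4.99-fold lower in knockdown TICs than in parental cells. TYMS, which makes thymidylate, was at 63.9, 37.2 and 15.2 CPM. GINS2, a part of the active helicase, was at 49.6, 27.4 and 11.5 CPM. These 3 stepped down at each state. For some members the drop lay mostly between parental cells and TICs. MCM3, a helicase subunit, was at 319, 139 and 139 CPM, MCM10, which helps start replication, at 192, 82.6 and 76.1, and PCNA, the polymerase clamp, at 35.8, 15.8 and 12.5. In MCM6, another helicase subunit, it lay after knockdown, at 164, 186 and 99.6 CPM. RRM2, the ribonucleotide reductase subunit, was lower at each state, at 494, 323 and 210.3 CPM.

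The same window before the start of transcription is shown for 3 of these genes, with matches to TTTNNCGC on either strand, an E2F-like string, in capitals. MCM3 lies at chr6:52284743-52284992, minus strand, MCM6 at chr2:135876444-135876693, minus strand and TYMS at chr18:657403-657652, plus strand (GRCh38.p14).
MCM3: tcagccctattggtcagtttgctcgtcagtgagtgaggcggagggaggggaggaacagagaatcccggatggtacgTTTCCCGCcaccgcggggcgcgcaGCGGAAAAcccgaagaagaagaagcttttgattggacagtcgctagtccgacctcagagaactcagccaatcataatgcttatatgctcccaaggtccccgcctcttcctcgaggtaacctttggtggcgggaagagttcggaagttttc
MCM6: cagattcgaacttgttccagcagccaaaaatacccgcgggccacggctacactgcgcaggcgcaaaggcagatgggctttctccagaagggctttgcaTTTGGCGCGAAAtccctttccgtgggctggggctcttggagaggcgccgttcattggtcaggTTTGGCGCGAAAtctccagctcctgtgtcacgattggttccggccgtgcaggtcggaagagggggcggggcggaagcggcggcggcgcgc
TYMS: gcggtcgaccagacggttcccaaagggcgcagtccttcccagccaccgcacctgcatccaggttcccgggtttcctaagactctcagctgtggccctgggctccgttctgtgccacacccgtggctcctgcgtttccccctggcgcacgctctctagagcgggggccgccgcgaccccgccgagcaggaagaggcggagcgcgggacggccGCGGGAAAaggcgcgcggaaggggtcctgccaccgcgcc
Of the 28 members, 24 had a promoter in the table, and 12 of the 24 (50%) held the string, against 5.93% of all promoters. In MCM6 the matches on the 2 strands overlap. Both MCM3 and MCM6 hold it although their levels differed in TICs.

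Genes of mitosis and the histones of S phase were also lower. Of 28 mitotic genes, 23 were lower in TICs, 4 at least 2-fold, with a median of −0.38. After knockdown 18 of 28 were lower than in TICs (median −0.23), and 26 of 28 lower than in parental cells (median −0.54, 3 at least 2-fold). Over all genes 16.3% were at least 2-fold lower in TICs than in parental cells, and 16.5% in knockdown TICs. The mitotic counts past 2-fold do not exceed those shares, which pool genes of all levels. However, 20 of the 28 were at a mean of 50 CPM or more, where fewer genes lay past 2-fold. At that level 207 of 3782 genes were at least 2-fold lower and 285 higher in TICs than in parental cells. In knockdown TICs 216 were lower and 257 higher. TOP2A, the topoisomerase of dividing cells, was at 1493, 1120.4 and 775 CPM, and MKI67, a proliferation antigen, at 1767, 1336 and 1079.8. BIRC5, survivin, was at 73.0, 29.1 and 20.6 CPM. PLK1, a mitotic kinase, was at 321, 132 and 228 CPM, lowest in TICs. UBE2C, a ubiquitin-conjugating enzyme of mitosis, was highest in TICs, at 37.5, 128 and 66.6 CPM. FOXM1, which drives mitotic genes, was at 357, 156 and 128 CPM. Of 18 histone genes compared, 17 were lower in TICs (median −0.73, 4 at least 2-fold) and 17 lower in knockdown TICs than in parental cells (median −1.15, 12 at least 2-fold). HIST1H4H, which encodes histone H4, was at 360.3, 248 and 144 CPM. Histone genes have near-identical copies that reads may not tell apart, so single histone values are uncertain.

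A pair of inhibitors of cyclin-dependent kinases was higher in TICs. CDKN1A, which encodes p21, was at 8.20, 56.8 and 53.1 CPM, 6.93-fold higher in TICs than in parental cells and 6.48-fold higher in knockdown TICs. CDKN2B, which encodes p15, was at 4.66, 48.5 and 11.8 CPM and was 4.09-fold lower in knockdown TICs than in TICs. Of the 16 cyclin D, kinase and inhibitor genes compared, these were the 2 at least 2-fold higher in TICs, and CDKN2C, which encodes p18, the 1 lower, at 5.17, 0.364 and 1.62 CPM. CDKN1B, which encodes p27, was at 88.9, 79.7 and 93.6 CPM, and CCND2, cyclin D2, at 3065, 4353 and 4888. The remaining kinase and cyclin genes of the list lay within 2-fold between TICs and parental cells. The list's counts past 2-fold do not exceed the shares over all genes, 17.4% higher and 16.3% lower. Of the 16, 8 were at a mean of 50 CPM or more. At that level 285 of 3782 genes were higher and 207 lower by that size.

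**Figure D2:**
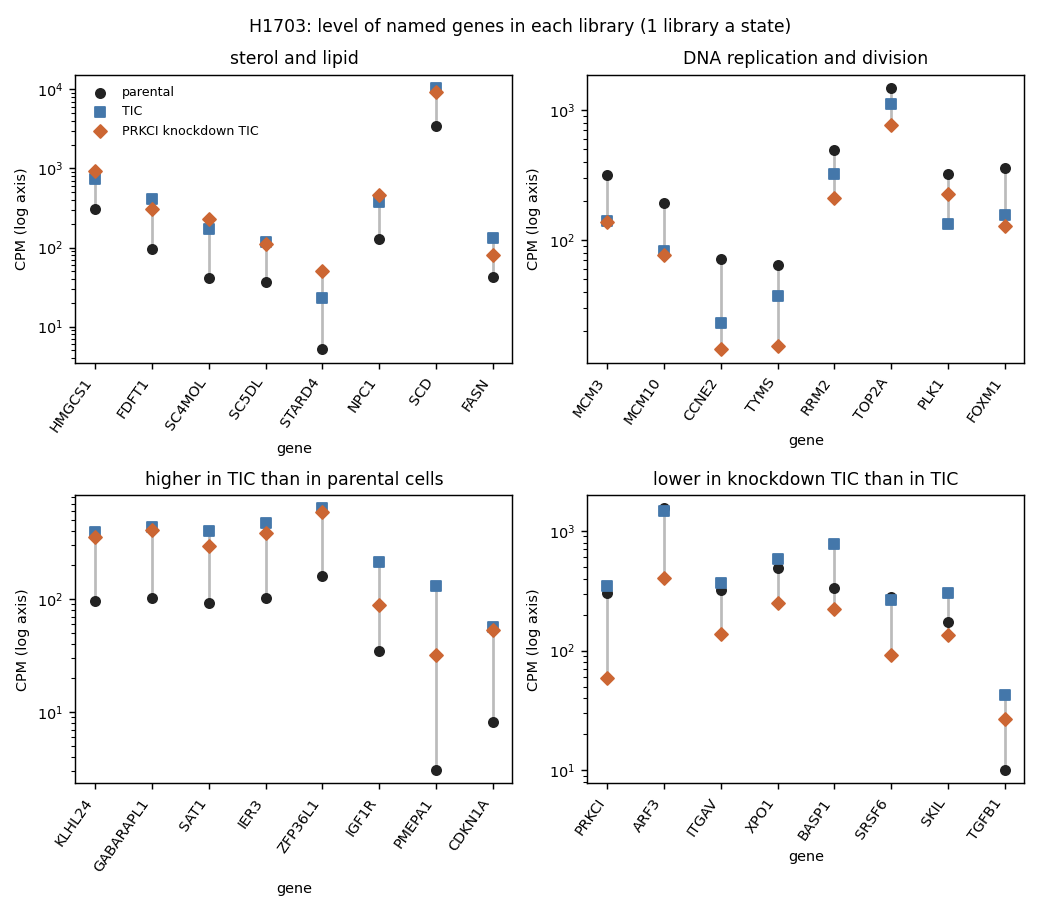
Points give the level of each gene (x axis) in CPM on a log axis (y axis) in the H1703 parental, TIC and PRKCI knockdown TIC libraries, 1 library each, with a grey line over their range. HMGCS1 and SC4MOL are higher in both TIC libraries than in parental cells, CCNE2 and TYMS step down at each state, and PRKCI and ARF3 are low only in the knockdown library.

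Most targets of FOXO factors were higher in TICs. FOXO proteins enter the nucleus when growth factor signalling is low and induce genes of cell cycle arrest, autophagy and cell death. Of 15 members compared, 11 were higher in TICs, 8 of them at least 2-fold and 1 at least 2-fold lower, beside 17.4% and 16.3% of all genes, with a median of 1.09. The median was 0.72 over the 12 members at 5 CPM or more. After knockdown 11 of 15 were lower than in TICs, 5 at least 2-fold, while 3 were at least 2-fold higher (median −0.36). Over all genes 15% were lower and 14.8% higher by that size. KLHL24, a ubiquitin ligase adaptor, was at 97.4, 394 and 353 CPM and stayed high. BCL6, a transcriptional repressor, was at 1.38, 11.7 and 23.8 CPM, highest after knockdown. BCL2L11, the death gene BIM, was at 31.1, 119 and 44.8 CPM, and CCNG2, cyclin G2, at 13.5, 35.8 and 14.8, both highest in TICs. TRIB1, a pseudokinase, had its lowest level in TICs and its highest after knockdown, at 4.48, 0.774 and 35.1 CPM.

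Among abundant genes, several of the largest differences between TICs and parental cells were also present in knockdown TICs. IER3, a stress-response gene, was at 102, 468 and 382 CPM, and SAT1, which acetylates polyamines, at 91.8, 404 and 295. GABARAPL1, an autophagosome protein, was at 103, 437 and 409 CPM, and ZFP36L1, which promotes decay of mRNAs, at 159, 636 and 592. In these 4 genes both TIC libraries lay above the parental library. MAP1LC3B, another autophagosome gene, was at 75.9, 173 and 189 CPM, and IDS, a lysosomal enzyme, at 201, 512 and 462. The lysosome and autophagy list as a whole was mixed, with 14 of 23 higher in TICs, 6 at least 2-fold higher, 2 at least 2-fold lower and a median of 0.24. NEAT1, a nuclear noncoding RNA like MALAT1, was at 288, 809 and 883 CPM. BHLHE40, a transcriptional repressor, was at 368, 1331 and 663 CPM, 2.01-fold lower in knockdown TICs than in TICs. Of the 11 genes of the BCL2 family compared, 5 were at least 2-fold higher in TICs and none lower, beside 17.4% and 16.3% of all genes, with a median of 0.96. MCL1, a survival member, was at 351, 683 and 651 CPM.

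Genes lower in TICs included some of the actin cytoskeleton, adhesion and matrix. Of 15 actin and SRF target genes compared, 4 were at least 2-fold lower in TICs and 1 higher, beside 16.3% and 17.4% of all genes, with a median of 0.05. TPM1, a tropomyosin, was at 563, 106 and 236 CPM, 5.30-fold lower in TICs than in parental cells, and TPM2 was at 518, 213 and 163. CRIM1, a membrane protein that binds BMPs, was at 779.9, 235 and 288 CPM, and ITGA6, a laminin receptor subunit, at 639, 237 and 299.6. CTGF, a matrix protein induced by YAP, was at 32.1, 3.73 and 3.96 CPM, and CYR61, its relative, at 48.8, 15.3 and 7.76. Of 16 YAP and TEAD targets compared, 5 were at least 2-fold lower and 3 higher, beside the same shares of all genes. ALDH1A1, an aldehyde dehydrogenase used as a marker of tumour stem cells, was lower in TICs, at 270.4, 91.3 and 104 CPM. Its list mostly went the other way. Of 21 stem and TIC markers 7 passed the minimum, 5 higher and 2 lower in TICs, with a median of 0.405. By at least 2-fold, 2 were higher and 1 lower. RBM3, a cold-induced RNA-binding protein, was at 252, 52.1 and 58.4 CPM. JUB, a LIM-domain adaptor now named AJUBA, was at 87.6, 6.47 and 61.0 CPM, and MCM8, a helicase of DNA repair, at 113, 13.7 and 82.3. In these last 2 genes only the TIC library was low.

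Most genes of the amino acid response were lower in TICs, while the gene of its factor was higher. ATF4 induces amino acid synthesis and transport when amino acids are scarce. Of 20 targets and related genes compared, 14 were lower in TICs, 7 at least 2-fold and 3 at least 2-fold higher, beside 16.3% lower and 17.4% higher over all genes, with a median of −0.73. After knockdown 11 of 20 were higher than in TICs, and knockdown TICs against parental cells had 10 higher and 10 lower. ASNS, asparagine synthetase, was at 306, 140.3 and 175 CPM, and PSAT1, an enzyme of serine synthesis, at 168, 51.9 and 40.5. ATF4 itself was at 125, 324 and 207 CPM.

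More interferon genes were lower than higher in H1703 TICs. Of 17 interferon-stimulated genes compared, 11 were lower, 6 at least 2-fold and 2 at least 2-fold higher, beside 16.3% lower and 17.4% higher over all genes, with a median of −0.47. From TICs to knockdown TICs the median was 0.01, with 6 at least 2-fold higher and 3 lower, beside 14.8% and 15% of all genes. OAS3, an antiviral synthetase, was at 102, 27.5 and 30.4 CPM, IFIH1, a sensor of RNA, at 32.9, 5.87 and 13.7, and STAT2, a transducer of interferon signals, at 17.3, 4.92 and 4.71. In TICs the list's median was 4.76 over 27 members in H1299, 0.08 over 23 in CHAGO and 0.24 over 28 in CALU. These are the members that passed the minimum in each line. Among 9 genes of NF-kB signalling and inflammation compared, 4 were at least 2-fold lower in TICs and 2 higher. NFKBIA, the inhibitor that NF-kB induces, was at 72.5, 15.7 and 10.8 CPM, BIRC3, an NF-kB-induced inhibitor of cell death, at 282, 60.2 and 50.3, and the chemokine CCL2 had 466, 4 and 0 reads. LIF, a cytokine, was higher in TICs, at 26.2, 86.1 and 47.9 CPM. NFKBIA was −2.20 in H1703 TICs on the log2 scale, and 1.23, 0.55 and 2.27 in H1299, CHAGO and CALU.

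Immediate early genes, switched on within minutes of growth factor signals, went both ways. Of 18 compared, 7 were at least 2-fold higher and 6 at least 2-fold lower in TICs, beside 17.4% and 16.3% of all genes. EGR1, a zinc finger factor, was 11.2-fold lower in TICs than in parental cells, at 217, 19.4 and 16.9 CPM. In the other lines EGR1 was higher in TICs, by 2.48, 0.97 and 3.19 on the log2 scale in H1299, CHAGO and CALU. FOSL1, a FOS relative, was at 25.8, 5.05 and 25.3 CPM and ZFP36, an mRNA decay factor, at 85.5, 28.4 and 63.1, both lowest in TICs. JUN was at 17.5, 63.8 and 52.1 CPM and KLF6 at 272, 576 and 796, both higher in the 2 TIC libraries. MYC was at 39.5, 74.8 and 93.4 CPM.

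Several TGF-beta signalling genes were high in TICs and lower after knockdown. TGF-beta ligands bind receptor kinases that phosphorylate SMAD factors, and SMADs induce feedback inhibitors. Of 13 TGF-beta and BMP targets that passed the minimum, out of 21 listed, 8 were higher in TICs, 6 at least 2-fold and 2 at least 2-fold lower, with a median of 0.82. Over all genes 17.4% were at least 2-fold higher and 16.3% lower in TICs. After knockdown 7 of 13 were at least 2-fold lower than in TICs and none higher, where 15% of all genes were lower, and the median was −1.13. ID4, a BMP target with 105, 0 and 0 reads, could not be compared between those libraries, although the 13 and the median include it. Over the 8 members at 5 CPM or more that median was −0.59. The 15% pools genes of all levels. Among all genes at 1 to 5 CPM, 702 of 2356 were at least 2-fold lower after knockdown than in TICs and 701 higher. The other lines' medians were −0.28 in H1299, −0.22 in CHAGO and −0.03 in CALU, over the 14, 14 and 19 members that passed there. PMEPA1, an inhibitor of SMAD signalling, was at 3.06, 131 and 32.2 CPM, 42.9-fold higher in TICs than in parental cells and 4.07-fold lower after knockdown than before. TGFB1, the ligand, was at 10, 43.0 and 26.9 CPM. SKIL, a SMAD co-repressor, was at 173, 306 and 136 CPM, and its relative SKI at 35.7, 101 and 71.2. LTBP2, a matrix protein related to those that bind latent TGF-beta, was at 1.02, 12.5 and 0.871 CPM. ID3, a BMP target, was at 17.1, 10.5 and 2.18 CPM and stepped down at each state.

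Of 14 receptor tyrosine kinases that passed the minimum, 5 were at least 2-fold higher and 1 lower in TICs, beside 17.4% and 16.3% of all genes. After knockdown 3 were at least 2-fold lower and none higher, beside 15% and 14.8%. IGF1R, the insulin-like growth factor receptor, was at 35, 213 and 89.6 CPM, 6.10-fold higher in TICs and 2.38-fold lower after knockdown than in TICs. DDR1, a collagen receptor, was at 8.96, 55.1 and 26 CPM, and MET, the hepatocyte growth factor receptor, at 101, 259.7 and 164. In all 3 the knockdown library lay between the others. In the other lines IGF1R in TICs against parental cells was 0.44, −0.03 and 0.13 on the log2 scale. The feedback genes of MAPK signalling were mixed: of 15 compared, 8 were higher and 7 lower in TICs, 6 at least 2-fold higher and 1 lower. Their median of 0.35 was −0.37 over the 9 members at 5 CPM or more. Among those with low levels in parental cells, ETV4, ETV1 and DUSP6, chosen after their values were seen, were highest in TICs. ETV4 was at 1.06, 16.3 and 3.76 CPM, ETV1 at 0.583, 11.6 and 2.38 and DUSP6 at 0.474, 6.47 and 1.23. SH3PXD2A, a scaffold of invasive protrusions, was at 17.3, 122 and 19.5 CPM, LAMP3, a lysosomal membrane protein, at 9.22, 193 and 41.7, and RUNX1, a transcription factor of blood and epithelia, at 55.1, 116 and 29.1. All 3 were highest in TICs.

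**Figure D3:**
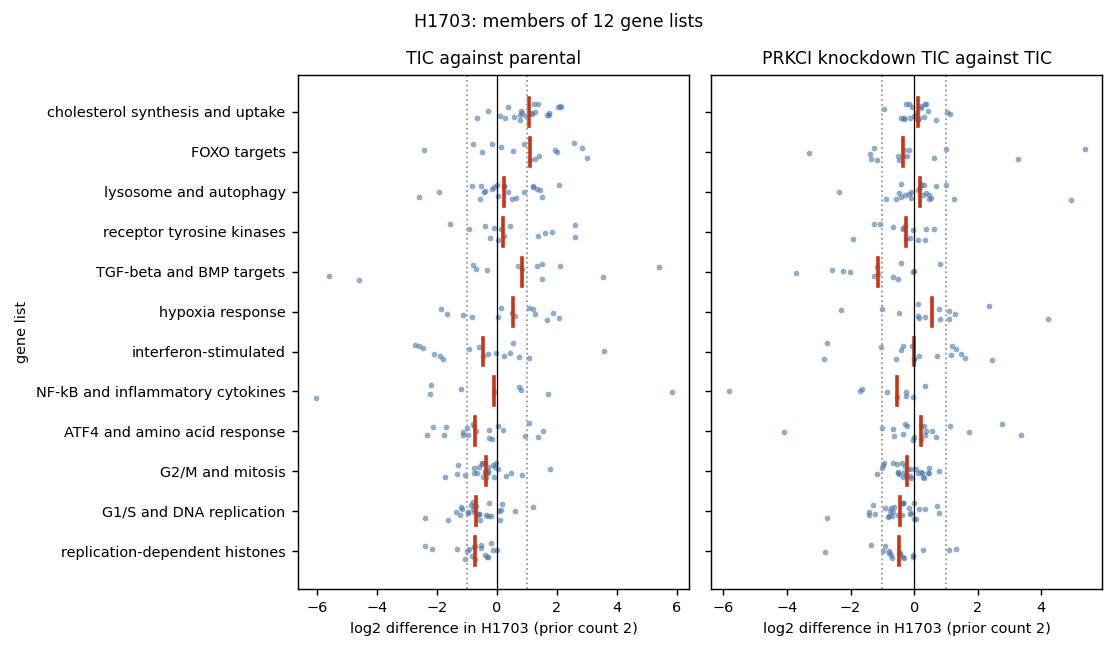
Each point is a member of a gene list (y axis) with its log2 difference in H1703 (x axis), and red bars give medians. In TICs against parental cells the median is 1.06 for cholesterol genes and −0.69 for DNA replication genes, and in knockdown TICs against TICs it is −1.13 for TGF-beta and BMP targets. Dotted lines mark 2-fold.

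Few abundant genes differed past 2-fold between knockdown TICs and TICs, apart from PRKCI itself. ARF3, a small GTPase of the Golgi, was at 1539, 1466 and 402 CPM, 3.65-fold lower after knockdown (log2 interval −1.90 to −1.83). It was also lower after knockdown in H1299, CHAGO and CALU, by log2 differences of −0.91, −1.45 and −1.50. SRSF6, a splicing factor, was at 281, 266 and 92.1 CPM, ITGAV, the alpha V integrin, at 323, 365 and 137, and XPO1, the main nuclear export receptor, at 490.0, 581 and 249. In these 4 genes parental cells and TICs lay close together and the knockdown library was low. In the other lines SRSF6 differed by 0.63, 0.41 and 0.70, ITGAV by 0.59, 0.22 and 0.07 and XPO1 by 0.41, 0.21 and −0.15 from TICs to knockdown TICs. BASP1, a membrane-associated signalling protein, was at 334, 773 and 225 CPM, MARK3, a polarity kinase, at 236, 399.6 and 134, and CCDC99, a spindle protein now named SPDL1, at 471, 673 and 234. In these 3 the TIC library was the highest. PALB2, which links BRCA1 and BRCA2 in DNA repair, was at 67.4, 99.3 and 20.2 CPM. Among focal adhesion genes, PXN, which encodes paxillin, was at 82.6, 105 and 43.7 CPM and ILK, a linked kinase, at 18.1, 32.6 and 15.3. Of 16 integrin and focal adhesion genes compared, 3 were at least 2-fold lower after knockdown and 1 higher, a share near that of all genes (15% lower).

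At 200 CPM or more, 4 genes were at least 2-fold higher after knockdown than in TICs. CHD2, a chromatin remodeller, was at 463, 342 and 813 CPM, MTRR, which reactivates methionine synthase, at 259.9, 158 and 358, and ARHGAP21, a regulator of small GTPases, at 158, 163 and 351. The other was TPM1. Among hypoxia response genes, 11 of 14 were higher, 5 at least 2-fold, while 2 were at least 2-fold lower, with a median of 0.55. Over all genes 14.8% were higher and 15% lower by that size. The hypoxia median was −0.68 in H1299, −0.26 in CHAGO and 0.18 in CALU, over the 16, 15 and 17 members that passed there. In H1703 it was 0.14 over the 6 members at 50 CPM or more. VEGFA, an angiogenic growth factor, was at 33.2, 18.7 and 96.0 CPM, 5.14-fold higher after knockdown than in TICs. BNIP3L, a mitophagy receptor, was at 29.9, 32.9 and 70.7 CPM, and NDRG1, a stress gene, at 12.8, 30.8 and 54.6. Of 20 glycolysis genes, 4 were at least 2-fold higher after knockdown and none lower, a share of higher genes near that of all genes (14.8%), with a median of 0.18. HK2, a hexokinase, was at 43.7, 23.0 and 78.5 CPM and SLC2A1, a glucose transporter, at 1.64, 1.41 and 15.3.

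Most Hedgehog pathway genes were below 50 CPM in H1703, and the list of signal transduction genes held members that went either way. No read of the ligands SHH, IHH and DHH was found in any of the 3 libraries. GLI3, a GLI factor that acts mainly as a repressor, also had no read in H1703. Of 16 genes of ligand release and reception 5 passed the minimum, and of 17 genes of signal transduction 15 did, 3 of them at 50 CPM or more. Of the 5, 3 were at least 2-fold lower in TICs than in parental cells and 1 higher (median −1.07), and 3 were at least 2-fold higher after knockdown than in TICs and none lower (median 1.47). SCUBE3, which helps release the ligands, had 330, 0 and 278 reads. DISP1, which exports the ligands, was at 9.84, 4.64 and 13.0 CPM, so that SCUBE3, DISP1 and PTCH1 were lowest in TICs. HHAT, which palmitoylates the ligands, had 28, 63 and 37 reads, or 1.02, 2.87 and 1.46 CPM. PTCH1, receptor and target, was highest after knockdown, at 13.2, 5.65 and 30.2 CPM. SMO was at 2.92, 16 and 5.50 CPM, highest in TICs. GLI1, the target factor, was at 3.64, 6.24 and 1.5 CPM, 4.15-fold lower after knockdown than in TICs, and GLI2, the main activator, stepped down at 12.2, 7.06 and 1.54 CPM. GLI1 and PTCH1, both targets of the pathway, went in opposite directions in each comparison. Of the 15 transduction genes, 2 were at least 2-fold higher and 1 lower in TICs, and 4 lower and none higher after knockdown. Over all genes the shares were 17.4% higher and 16.3% lower in TICs, and 15% lower and 14.8% higher after knockdown. In the other lines GLI1 in TICs against parental cells differed by 4.04, 4.94 and 5.99. SOX2, the stem cell factor, had 0, 75 and 27 reads. ECT2, a partner of PRKCI that activates small GTPases, was at 461, 344 and 315 CPM.

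Core housekeeping groups moved little. Over all genes 17.4% were at least 2-fold higher and 16.3% lower in TICs than in parental cells. After knockdown 14.8% were higher and 15% lower than in TICs. Most ribosomal protein (21 of 27) and oxidative phosphorylation genes (18 of 27) reached a mean of 50 CPM. At that level 13.0% and 6.50% of all genes lay past 2-fold in those comparisons. Of 27 ribosomal protein genes 1 and of 27 oxidative phosphorylation genes 1 was past 2-fold in TICs against parental cells, both lower, and none in knockdown TICs against TICs. Their medians were −0.04 and −0.15 for TICs against parental cells, smaller than the shift of 0.19 that the authors' scaling makes, and 0.13 and −0.01 after knockdown. The 14 genes of the atypical protein kinase C and polarity complex that passed the minimum had medians of −0.04 and −0.05, and PRKCI was the 1 member at least 2-fold lower after knockdown, against 1 higher, PARD6G, a PAR6 gene at 6.74, 0.228 and 1.62 CPM. Targets of NRF2, which protects against oxidants, were slightly higher in TICs (11 of 15, median 0.31), with 1 at least 2-fold higher.

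Some genes held many reads in 1 library and almost none in another. At least 100 reads in TICs with at most 3 in parental cells were found for 79 genes, and the reverse for 86. For knockdown TICs against TICs the counts were 92 and 67. VMAC had 0, 978 and 0 reads, ALPK3, a kinase of heart muscle, 0, 858 and 0, and ITGAM, a leukocyte integrin, 2169, 0 and 13. MYB, a factor of progenitor cells, had 942, 0 and 15 reads and HOXB3, a homeobox gene, 0, 0 and 461. Against a limit of 3 reads in the other library, VMAC was at least 407-fold higher in TICs than in parental cells, and ITGAM at least 579-fold lower. CLU, clusterin, had 2, 1415 and 363 reads and EPS8, an actin regulator, 1, 1065 and 509. Whether such genes would recur in another library of the same state was not tested.

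Whether a change in H1703 differed from the change in the other lines was tested with edgeR's quasi-likelihood fit over all 12 libraries, which estimates the spread from the 3 other lines with 4 residual degrees of freedom. Of 14008 genes, 0 (0%) passed a Benjamini-Hochberg adjusted p of 0.05 for the change from parental cells to TICs, and 0 (0%) for the change from TICs to knockdown TICs. At an unadjusted p under 0.05, H1703 lay above the other lines for 370 genes and below for 405 in the first comparison, and for 306 and 344 in the second. These are 775 and 650 of the 14008 genes. Both lie near the share of 0.05 that this threshold gives where no gene differs, so they mark no gene as particular to H1703. DESeq2 with the same design called 117 and 130 genes. In the first comparison the smallest p belonged to LPAR1, a receptor for lysophosphatidic acid, with 0, 474 and 98 reads and an adjusted p of 0.0903 in edgeR and 1.88e-05 in DESeq2. EPS8 followed, with 0.136 in edgeR and 1.89e-06 in DESeq2. LPAR1 differed by 8.07 in H1703 and by −0.89, −0.54 and −0.66 in the other lines. With 0 reads in parental cells, the size of 8.07 depends on the prior count. MARCKS, an actin-binding substrate of protein kinase C, was at 1.68, 26.5 and 10.4 CPM, a log2 difference of 3.92, with an adjusted p of 0.258 in edgeR and 1.28e-06 in DESeq2. For EGR1 the log2 change in H1703 less that of the others was −5.61 ± 1.01 (SE), with an adjusted p of 0.423 in edgeR and 9.88e-06 in DESeq2. In the second comparison PTPRK, a receptor phosphatase, had 141, 60 and 0 reads and an adjusted p of 0.163 in edgeR and 0.0109 in DESeq2. ENC1, an actin-binding protein, had 194, 243 and 10 reads and an adjusted p of 0.378 in edgeR and 1.07e-05 in DESeq2. ZFAT, a zinc finger gene, was at 13.6, 0.820 and 134 CPM, with an adjusted p of 0.378 in edgeR and 1.23e-07 in DESeq2.

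**Figure D4:**
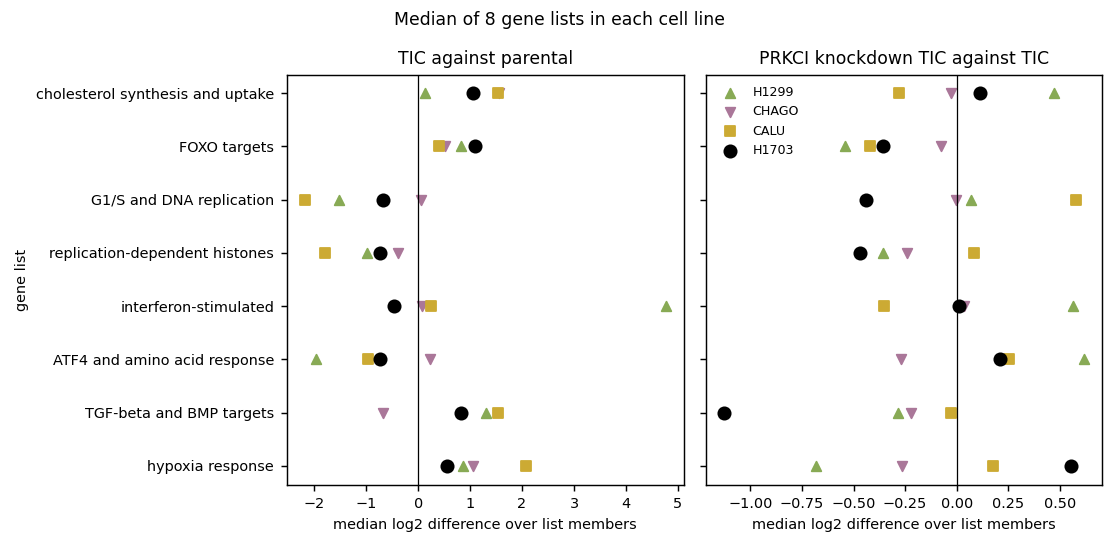
Points give the median log2 difference (x axis) of the compared members of 8 gene lists (y axis) in H1703, H1299, CHAGO and CALU. Each line's median covers the members that passed the minimum in that line. In TICs against parental cells the cholesterol median is 1.06 in H1703 and 0.12 in H1299, and the interferon median is −0.47 in H1703 and 4.76 in H1299. In knockdown TICs against TICs the TGF-beta median of −1.13 in H1703 lies lowest of the 4 lines.

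Set beside the other lines, the cholesterol median of 1.06 in H1703 TICs lay between 0.12 in H1299 and 1.55 in CHAGO, with 1.54 in CALU. The DNA replication median of −0.69 lay between −2.18 in CALU and 0.05 in CHAGO. From TICs to knockdown TICs that median was −0.44 in H1703, against 0.07 in H1299, 0.00 in CHAGO and 0.58 in CALU. For FOXO targets the median was 1.09 in H1703 TICs and between 0.41 and 0.82 in the other lines, but 0.72 in H1703 over the members at 5 CPM or more, so no order of the lines follows. These list medians were not tested between lines, and each covers the members that passed the minimum in its own line. HMGCS1 differed by −0.12 ± 0.96 (SE) between H1703 and the other lines in TICs against parental cells, with an edgeR adjusted p of 1, and MCM3 by 0.14 ± 0.81 (adjusted p 1). For PRKCI after knockdown the difference was 0.83 ± 0.81 (edgeR adjusted p 1).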

How the data were processed

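The labels' protocols name Qiagen RNEasy for RNA extraction and NuGen for the libraries. CASAVA 1.4, TopHat 1.4 and HTSeq 0.5.3p3 with hg19 are named per the submitters' processing notes. The main deposited table holds raw read counts per gene. The authors also deposited a mode-normalized score, found to be each count multiplied by 1 factor per library and rounded, which served only as an alternative. Columns were matched to samples through their titles, and the same line pairs libraries across states.

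In R 4.3.3, TMM factors over the 3 H1703 libraries (edgeR 4.0.16) gave CPM. Genes with a mean of at least 1 CPM were compared, with a prior count of 2 and exact 95% counting intervals, which cover counting error only. A zero was taken as at most 3 reads. Differences from other lines were tested, two-sided, with edgeR's quasi-likelihood fit of line, state and their interaction for H1703, adjusted by Benjamini-Hochberg, with DESeq2 1.42.0 as an alternative. The scripts were tested on simulated data.

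Genes were named by rule: the targeted and pathway genes, the 12 largest differences per direction and the 4 largest per list, with the same ranking at 50 and 200 CPM added later. Other named genes were chosen after their values were seen. H1703, the genes and the 49 gene lists were chosen with earlier results of these data known. Symbols turned into dates by a spreadsheet (26) were left unnamed, and a few genes of the lists are counted but not reported singly here. Promoters came from RefSeq's table, and the motifs searched were chosen after the gene changes were seen.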

Additional observations from a re-analysis of the deposited data

Results flagged for a closer look

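EID3, a gene of the EID family of transcription regulators, was set apart because it went one way in H1703 and the other way in each other line. It was at 34.2, 70.4 and 114 CPM in the H1703 parental, TIC and knockdown TIC libraries, a log2 difference of 1.04 between TICs and parental cells, against −2.30, −4.54 and −3.98 in H1299, CHAGO and CALU. The difference between H1703 and the other lines was 4.80 ± 1.18 (SE, log2), with an edgeR adjusted p of 0.739, which misses the threshold. DESeq2 with the same design called it, with a difference of 4.83 and an adjusted p of 0.0108.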

How the results depend on the processing

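The counts past 2-fold depended on level and size. In the order TIC against parental, knockdown TIC against TIC and knockdown TIC against parental, a mean of at least 5 CPM left 1246, 972 and 1157 genes higher and 1167, 995 and 1177 lower. A 3-fold threshold left 1127, 965 and 1047 higher and 1013, 992 and 1004 lower. With no filter, knockdown TICs against TICs gave 2524 higher and 2570 lower. Minimums added after seeing the data left 285, 130 and 257 higher and 207, 116 and 216 lower at 50 CPM, and 79, 4 and 74 higher and 22, 16 and 30 lower at 200 CPM. The other 40 alternative counts, from other scalings, another prior count, no filter in the other comparisons and a counting interval beyond 2-fold, stayed within 1.5 times. Another scaling multiplies each library by 1 factor and shifts all well-counted genes alike, so it cannot show whether a single gene's change is stable. Single genes were checked under 4 other scalings only for the targeted and pathway genes and those ranked at 50 or 200 CPM. Of their log2 differences, 441 moved by under 0.25 and 3 by more, those of SOX2 and TP63, which had few reads. Other genes at lower levels were not covered. Of the 20 lists recomputed under 4 scalings, the median of interferon genes after knockdown, 0.01, was −0.08 with the mode-normalized values, and no other printed median of these lists changed sign.

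For the difference of H1703 from the other lines, edgeR called 0 genes under both other scalings, at a mean of at least 5 CPM, with the 8 libraries of 2 states, and without H1299, CHAGO or CALU in turn. An adjusted p of 0.10 called 1 gene for TICs against parental cells and 0 for the other. DESeq2 called 117 and 130, and the first count moved by 2 genes between processor settings of the linear algebra library, so genes at its threshold are not settled. With no replicate block, that is without a term for the line of the other 3 lines, 0 genes were called in each. With 1 library per state the spread between H1703 cultures is unknown, and low counts limit every gene near 1 CPM. The counting intervals do not cover that spread. With the whole interval beyond 2-fold, 1510 of 1972 genes were still higher and 1373 of 1846 lower in TICs than in parental cells. What else spreads genes at low levels was not tested.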
